A study of Mus musculus with 8 samples.

Results

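Stress-response endothelial cells were taken here as the endothelial cells of the adult mouse heart in which 7 stress genes made up the largest share of the transcripts. The members were chosen by measured values. A cell was eligible when it held at least 1 unique molecular identifier (UMI, the tag that counts a captured mRNA molecule) of Pecam1, Kdr or Cdh5 and 0 of Ptprc, Rgs5, Mki67 and Top2a, which are genes of leukocytes, of pericytes and of cycling cells. Its score was the summed UMIs of Hspa1a, Hspa1b, Fosb, Egr1, Atf3, Fos and Jun over all UMIs of the cell. The members were the top 10% of the eligible cells of each mouse, 2262 of 22610 eligible cells and of 31028 cells in all. They were compared with the bottom 50% of the same mouse, 11302 cells that are called low-score cells here.

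The cells came from 4 healthy mice (numbered 227, 228, 239 and 240) and from 4 mice after myocardial infarction (MI; 244, 250, 255 and 256), with 1 library of 3′ single-cell RNA-seq per mouse. All 8 were adult Pdgfb-iCreERT2-R26R-Brainbow2.1 mice, in which a Cre recombinase driven by Pdgfb and switched on by tamoxifen starts a fluorescent Confetti colour. Each mouse received 150 mg/kg tamoxifen and was killed 21 days later. In the MI mice the left anterior descending artery had been tied off for good 14 days after tamoxifen, which left 7 days with an infarct. The healthy mice had no operation, so infarct and surgery cannot be told apart here. Minced ventricles were digested with enzymes, and living cells positive for Confetti and CD31 and negative for podoplanin were sorted, a sort aimed at endothelial cells in which Pdgfb had driven recombination. All comparisons between groups are over mice, since the cells of a mouse are not replicates.

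Heat shock proteins are chaperones that refold or hold damaged proteins. Their genes are switched on within minutes by heat shock factor when unfolded protein appears, and Hspa1a and Hspa1b encode the inducible HSP70. Immediate early genes are transcribed at once, with no new protein synthesis, when a cell meets a growth factor, a change of flow, injury or stretch: Fos, Fosb and Jun encode subunits of the AP-1 transcription factor, Egr1 a zinc finger factor and Atf3 a stress-induced bZIP factor. In endothelium both groups are known to respond to injury and disturbed flow in the body, and also to the enzymatic digestion at body temperature that frees cells from tissue. All 8 hearts were digested in this way, so a response in the living heart and one during digestion cannot be told apart here.

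The upstream sequences of 3 score genes are shown because the score joins genes of both kinds. They are the 250 bases before the start site, read 5′ to 3′ on the strand of the gene, from RefSeq on GRCm38.p6; 6 of the 7 score genes had an entry. In the first pair the capitals mark the heat shock element core GAANNTTC, and in Fos the letters TGACG from the core of the cAMP response element, which are part of its full form TGACGTCA, both searched on either strand.
Hspa1a: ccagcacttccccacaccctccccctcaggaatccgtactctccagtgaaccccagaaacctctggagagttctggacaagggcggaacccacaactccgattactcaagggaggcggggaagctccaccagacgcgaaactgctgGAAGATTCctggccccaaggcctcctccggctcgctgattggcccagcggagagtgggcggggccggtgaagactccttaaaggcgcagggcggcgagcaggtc
Hspa1b: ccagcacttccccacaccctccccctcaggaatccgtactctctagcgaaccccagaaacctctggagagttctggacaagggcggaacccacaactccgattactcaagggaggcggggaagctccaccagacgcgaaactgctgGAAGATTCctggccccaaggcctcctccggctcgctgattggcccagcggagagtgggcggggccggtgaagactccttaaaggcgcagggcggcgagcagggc
Fos: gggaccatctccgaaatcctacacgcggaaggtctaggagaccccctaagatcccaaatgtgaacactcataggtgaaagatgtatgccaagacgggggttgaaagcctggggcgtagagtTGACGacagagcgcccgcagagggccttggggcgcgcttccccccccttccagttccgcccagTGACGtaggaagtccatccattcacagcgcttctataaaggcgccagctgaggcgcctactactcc
These lie at chr17:34972157-34972406, chr17:34959239-34959488 (both on the minus strand) and chr12:85473640-85473889 (plus strand).

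The Hspa1a and Hspa1b sequences were identical at 247 of the 250 bases (98.8%). The differences, as Hspa1a to Hspa1b and counted back from the start site, were C-207T, T-204C and T-2G. Each held 1 match to GAANNTTC, starting 104 bases before the start site. The letters also occurred in the Jun sequence and in none of those of Fos, Fosb and Atf3, and 6.78% of 27025 promoters of the same table held them. TGACG stood in the Fos sequence at 129 and 66 bases before the start site, in Fosb at 60 and in Atf3 at 7, and in 17.9% of all promoters. A match describes the letters only.

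In GRCm38 with the GENCODE annotation, Hspa1a (chr17:34969190-34972156) and Hspa1b (chr17:34956436-34959238) are neighbouring genes on the minus strand with nearly the same sequence, so the share of UMIs that fell on each is uncertain. Gm20481 overlaps Hspa1a, and Junos overlaps Jun, on the opposite strand. Fos lies at chr12:85473890-85477273, Fosb at chr7:19302696-19310051, Jun at chr4:95049034-95052222 and Atf3 at chr1:191170296-191218039.

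The libraries differed in depth and, in the healthy group, some held the same cell barcodes. Healthy 228 shared 2041 barcodes with Healthy 239, and Healthy 227 shared 316 with Healthy 228. The 2357 cells were dropped from Healthy 228 and Healthy 227, after which any pair of mice shared between 0 and 40 barcodes. Which library the shared cells truly belong to is not known. Eligible cells numbered 1346 to 3233 in healthy and 2843 to 3895 in MI mice, with 3941818 to 6916391 and 11274506 to 17603081 UMIs. Members numbered 210, 135, 323 and 297 in Healthy 227, 228, 239 and 240, and 317, 390, 306 and 284 in MI 244, 250, 255 and 256. Doublets were not called here, and cells with many UMIs were kept.

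Scores on either side of the cut-off were close, as the rule takes a fixed share of ranked cells. The last member scored 104, 180, 150 and 164 score-gene UMIs per 10000 UMIs in Healthy 227, 228, 239 and 240, and 127, 157, 114 and 134 in MI 244, 250, 255 and 256. The first cell left out scored 104, 180, 149 and 164 in the healthy and 127, 157, 114 and 133 in the MI mice. The median score of a member was 139 to 228 in the healthy mice, and 156 to 208 after MI, against medians over all eligible cells of 11.6 to 31.6 and 20.9 to 38.7. Members held 8.26% to 10.4% of the UMIs of eligible healthy cells and 30.2% to 39.6% of their score-gene UMIs, and in MI mice 7.24% to 7.84% and 29.5% to 33.4%.

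**Figure D1:**
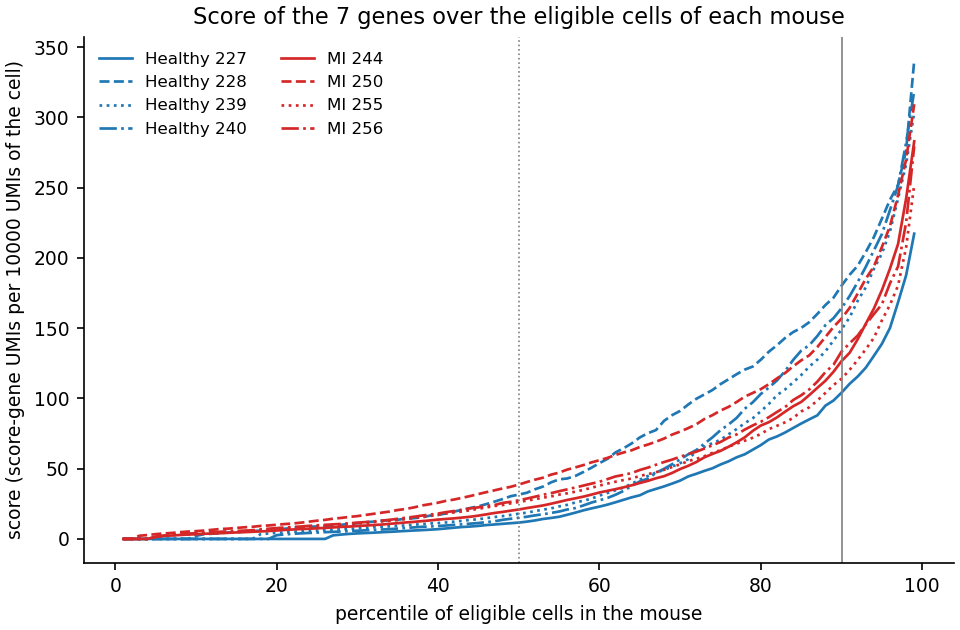
Score of each eligible cell (y axis, score-gene UMIs per 10000 UMIs) at each percentile of the eligible cells of a mouse (x axis), with healthy mice in blue and MI mice in red; the solid line marks the top 10% and the dotted line the bottom 50%. The score at the top 10% lay between 104 (Healthy 227) and 180 (Healthy 228).

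The level of each score gene in members is a description, since these values chose the cells. Fos, the partner of Jun in AP-1, stood at 37.4, 76.1, 73.4 and 87.8 UMIs per 10000 in the members of Healthy 227, 228, 239 and 240, and at 57.7, 74.7, 62.8 and 62.4 in those of MI 244, 250, 255 and 256. In low-score cells it stood between 0.320 and 4.17. Healthy 227 was the lowest of the 8 in members for Fos, Jun, Egr1 and Atf3.

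Jun stood at 40.2, 62.1, 55.0 and 60.1 in healthy members and at 53.2, 52.9, 46.3 and 44.4 in MI members, against 1.77 to 5.44 in low-score cells. Hspa1a stood at 46.4, 63.8, 57.4 and 47.8 in healthy and 49.3, 58.2, 29.7 and 44.2 in MI members, against 0.470 to 3.16. Fos, Jun and Hspa1a thus gave most of the score, and their healthy and MI ranges overlapped.

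The other 4 genes were scarcer. Egr1 ran from 8.20 to 17.7 in healthy and from 10.4 to 14.7 in MI members. Fosb ran from 8.40 to 12.3 and from 8.22 to 11.9. Hspa1b stood at 5.64, 9.83, 4.53 and 3.30 in healthy and at 2.46, 2.58, 1.45 and 3.78 in MI members, where only MI 256 came above the lowest healthy mouse. Atf3 stood at 1.71, 3.13, 4.42 and 5.57 in healthy and at 6.42, 8.78, 5.69 and 4.67 in MI members, where only MI 256 came below the highest healthy mouse.

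**Figure D2:**
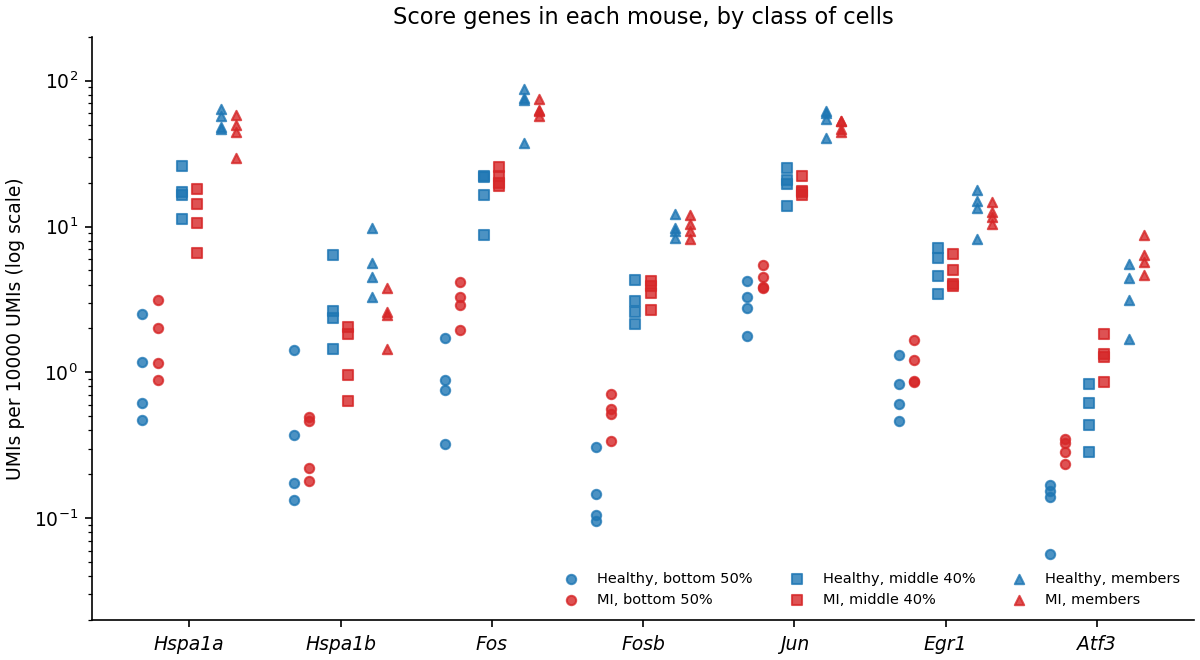
UMIs per 10000 UMIs (y axis, log scale) of the 7 score genes in low-score cells (circles, bottom 50%), the middle 40% (squares) and members (triangles), with 1 point per mouse, healthy in blue and MI in red. Each gene rises over the 3 classes because the classes were cut on the summed score; Atf3 lies mostly higher and Hspa1b mostly lower in MI than in healthy members.

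Whether infarcted hearts held more of these transcripts was asked over all eligible cells, which the 10% rule does not fix. The 7 genes together stood at 52.1 ± 11.3 UMIs per 10000 in the 4 healthy mice, and at 46.6 ± 8.17 in those with an infarct (mean ± SD), a difference of -5.46 (two-sided exact permutation test, p = 0.457). With cells thinned to 1000 UMIs the difference was -1.33 (52.2 and 50.9, exact p = 0.886), and that of the 5 immediate early genes moved from -0.29 to 2.51 (exact p = 0.914 and 0.714). Thinning left out 522 healthy and 0 MI cells with fewer UMIs, so it changed more than depth. Taken as a mean over cells without thinning, the 7 genes stood at 51.7 in healthy and 51.4 in MI mice. The median score of an eligible cell lay the other way, at a mean of 19.0 in healthy and 28.3 in MI libraries, which are the deeper ones. This design cannot give a p below 0.0286. None of the 7 genes passed after adjustment over them: Atf3 came closest, at 0.636 ± 0.259 in healthy and 1.18 ± 0.314 in MI mice (exact permutation p = 0.0571, adjusted p = 0.3), and Hspa1b stood at 2.21 ± 1.48 and 0.936 ± 0.436 (exact p = 0.0857, adjusted p = 0.3). The score at which the top 10% began was 150 ± 32.8 in healthy and 133 ± 17.9 in MI mice (exact permutation p = 0.4).

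Members mixed both kinds of gene. The heat shock pair made up a median of 36.8%, 31.4%, 28.0% and 21.2% of a member's score UMIs in Healthy 227, 228, 239 and 240, and 28.8%, 29.0%, 17.8% and 25.2% in MI 244, 250, 255 and 256. No member lacked an immediate early UMI, and 1.48% to 11.1% lacked a heat shock UMI, with the highest share in MI 255. The heat shock pair made up the larger part of the score UMIs in 22.9% of the members of Healthy 227 and in 4.25% to 12.7% of those of the other 7 mice. In members, 6.49 to 14.5 Hspa1a UMIs were counted per Hspa1b UMI in healthy and 11.7 to 22.6 in MI mice. Over all eligible cells the mean ratio was 7.14 ± 2.26 and 10.7 ± 2.23 (SD, n = 4 each, exact permutation p = 0.0857), with the split between these near-identical genes uncertain.

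The score was next split, so that each kind of gene could be read in cells ranked by the other alone. In the top 10% by the 5 immediate early genes, Hspa1a and Hspa1b together stood at 35.9, 59.0, 48.3 and 35.8 UMIs per 10000 in healthy and 37.9, 45.3, 22.4 and 34.9 in MI mice. In the bottom 50% by the same ranking they stood at 3.28, 6.04, 3.75 and 1.39, and at 2.33, 5.0, 1.61 and 4.62. The pair was thus higher in the top cells of 8 of 8 mice, by 7.55-fold to 25.9-fold (mean log2 ratio 3.63 ± 0.56, SD, n = 8, exact sign-change test, p = 0.0078125, the smallest it can give, adjusted over 2 tests p = 0.0078125). Against all other eligible cells in place of the bottom 50%, it was 3.08-fold to 5.64-fold.

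The reverse reading gave the same direction. In the top 10% by the heat shock pair, the 5 immediate early genes stood at 59.7, 118, 103 and 128 in healthy and 97.5, 115, 93.6 and 85.9 in MI mice. In the bottom 50% they stood at 7.61, 16.1, 15.1 and 18.3, and at 17.5, 25.4, 21.9 and 19.5. The ratio ran from 4.27 to 7.84 (mean log2 ratio 2.54 ± 0.36, SD, n = 8, exact sign-change test adjusted p = 0.0078125), and from 2.84 to 3.79 against all other eligible cells. Between 37.3% and 45.4% of the top cells by either ranking were top cells by both. Both readings divide by the same cell total, and the ratio of the immediate early genes was lower in each MI mouse (mean log2 2.22 ± 0.17) than in each healthy mouse (2.85 ± 0.09, exact permutation p = 0.0286, adjusted over 2 p = 0.0571), which fails the correction.

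**Figure D3:**
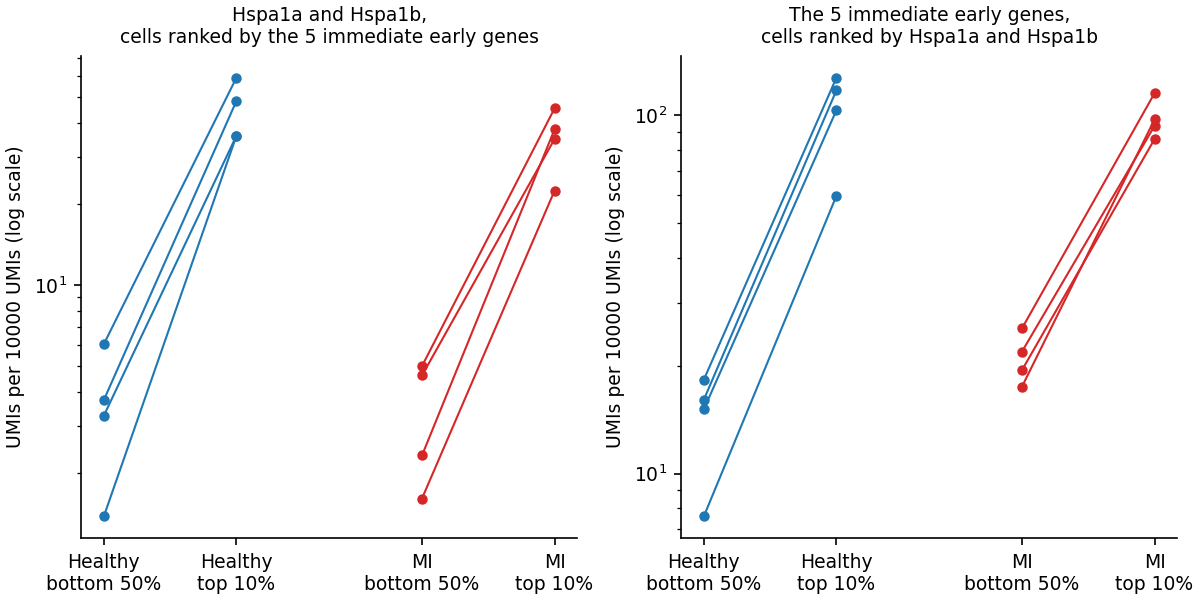
UMIs per 10000 UMIs (y axis, log scale) of Hspa1a and Hspa1b in cells ranked by the 5 immediate early genes (left panel) and of those 5 genes in cells ranked by the heat shock pair (right panel), with a line per mouse from the bottom 50% to the top 10%, healthy in blue and MI in red. All 16 lines rise, by 7.55-fold to 25.9-fold on the left and by 4.27-fold to 7.84-fold on the right.

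Which other genes go with the score was tested on counts summed per mouse over members and over low-score cells (edgeR's quasi-likelihood test with the mouse as a block and Benjamini-Hochberg adjustment, 14 rule genes left out). Levels are in CPM, the UMIs of a gene scaled to a common library total with TMM factors. Of 9943 genes tested, 1152 were higher in members (11.6%) and 1105 lower (11.1%), at a median log2 fold change of 0.0033. The score shares its denominator with these levels, so a gene that takes a large part of a cell's UMIs is not independent of it. When cells were chosen on a random 50% of their UMIs and read in the rest, 1551 genes were called, 1414 of them among the calls above. Members had a median of 1787 to 2376 UMIs against 1722 to 2409 in low-score cells of healthy mice, and 2628 to 3405 against 3270 to 4560 in MI mice, where members were the shallower cells in 4 of 4.

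Further immediate early transcription factors were higher with the 5 of the score. Of 15 in a list, 11 could be tested and 9 rose, with a median log2 fold change of 2.13 over the 11. Junb, another Jun family subunit of AP-1, stood at 2446, 4369, 5252 and 6580 CPM in healthy and 4334, 4961, 4094 and 3974 in MI members. In low-score cells it stood at 147, 273, 264 and 219, and at 324, 536, 475 and 447. The 2 classes did not overlap, and the change was 14.3-fold (log2 3.84 ± 0.16, SE, n = 8, edgeR adjusted p = 2.93e-13). Prdx2 overlaps Junb on the opposite strand.

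The other factors of that list moved less or were scarcer. Jund, a steadily expressed Jun family member, was 4.38-fold higher and Ier2 4.82-fold. Nr4a1, an orphan nuclear receptor, was 8.12-fold higher, from 12.4 to 25.8 CPM in low-score cells to 75.9 to 249 in members. Egr2, another of the 9, was rare, at 0 to 2.06 CPM in low-score cells and 7.06 to 56.6 in members. It passed the filter on low counts through the members, and its fold is not given because few UMIs stand behind the low-score level. Maff and Batf, named after their values were seen, were the 2 tested members of the list that did not pass, at log2 0.19 and 0.03.

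Of 25 immediate early regulators that are not transcription factors 24 rose, at a median log2 of 1.56, and Ctgf (log2 0.33, named after its value was seen) was the exception. Socs3, which shuts off cytokine signalling through STAT, stood at 319, 544, 564 and 520 CPM in healthy and 834, 961, 937 and 615 in MI members, against 17.4, 35.1, 30.1 and 25.3, and 54.6, 73.3, 90.9 and 58.9, in low-score cells. Each member value was above each low-score value, and the change was 14.5-fold (log2 3.85 ± 0.10, SE, edgeR adjusted p = 6.06e-16).

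Zfp36, which speeds the decay of mRNAs of immediate early and cytokine genes, was 10.4-fold higher, at 512 to 1469 CPM in members and 64.1 to 119 in low-score cells. Ppp1r15a, a phosphatase subunit that restores translation after stress, was 9.7-fold higher. Btg2, an inhibitor of proliferation, was 8.26-fold higher, and Ier3 7.31-fold. Each of the 4 was higher in 8 of 8 mice.

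Heat shock proteins outside the score rose in part. Of 26 in the list 24 were tested, 11 rose, 1 fell and 12 did not pass, at a median log2 of 0.23. Dnajb1, the HSP40 cochaperone of HSP70, stood at 191, 320, 305 and 352 CPM in healthy and 295, 422, 234 and 274 in MI members. In low-score cells it stood at 30.7, 36.2, 44.8 and 44.3, and at 41.6, 53.7, 46.9 and 45.4. This was a change of 7.01-fold (log2 2.81 ± 0.08, SE, edgeR adjusted p = 7.49e-16), with no overlap between the classes.

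Hsp90aa1, the inducible HSP90, was 5.1-fold higher (688 to 1861 CPM in members, 203 to 311 in low-score cells), Hspb1, a small heat shock protein, 2.73-fold and Dnaja1 2.65-fold. Chaperones of the mitochondrion and the factor itself did not pass: Hspd1 had a log2 of -0.04, Hspe1 of -0.15 and Hsf1 of -0.04, all named after their values were seen. Serpinh1, a chaperone of collagen that was also named after its value was seen, fell by 0.26 on the log2 scale.

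Other stress pathways changed less evenly. Of 18 chaperones and regulators of the endoplasmic reticulum 4 rose and 4 fell (median log2 -0.04), among them Hspa5, the chaperone BiP, which was 1.65-fold higher in 8 of 8 mice, and Dnajb9, 2.36-fold higher. Manf, Canx, Calr and Hsp90b1, named after their values were seen, fell by 0.21, 0.21, 0.20 and 0.16 on the log2 scale, and the summed level of the list in members was 0.968 to 1.19 of that in low-score cells. Of 10 tested genes in a list of ATF4 and CHOP targets, which also held Atf4 itself, 3 rose. They were Atf4 (2.36-fold), Cebpb (2.31-fold) and Slc3a2 (1.52-fold). Ddit3 and Trib3, named after their values were seen, stood at log2 0.27 and 0.01 and did not pass. Among 15 genes of p53 and growth arrest 7 rose. Cdkn1a, the cell cycle inhibitor p21, was 4.29-fold higher and Gadd45b 7.84-fold, but Trp53, Bax and Bbc3 did not pass (log2 -0.18, -0.13 and 0.15, named after their values were seen). Of 14 oxidative and metal stress genes 5 rose and 1 fell, all by less than 1 log2 unit, and Hmox1 (log2 0.31, named after its value was seen) did not pass.

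Inflammatory targets of NF-kB rose in part, 12 of 21 tested with 1 lower (median log2 0.40). Nfkbiz, a nuclear regulator of NF-kB, stood at 191, 280, 161 and 243 CPM in healthy and 233, 212, 220 and 259 in MI members, against 10.2, 15.8, 12.5 and 13.6, and 25.5, 32.5, 36.0 and 41.7, in low-score cells, a change of 9.16-fold (log2 3.20 ± 0.15, SE, edgeR adjusted p = 2.91e-12). The neutrophil chemokine Cxcl1 was 7.13-fold higher, Irf1 3.28-fold and the adhesion molecule Icam1 2.3-fold, each in 8 of 8 mice. Nfkb1, Nfkb2 and Ccl2, named after their values were seen, had log2 values of 0.16, 0.05 and 0.14 and did not pass.

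Of 14 tested genes that respond to blood flow 10 rose and 1 fell (median log2 0.78). Klf2, the factor that laminar flow induces in endothelium, stood at 2820, 5485, 6208 and 6499 CPM in healthy and 5044, 5462, 3708 and 3713 in MI members. In low-score cells it stood at 958, 1279, 1992 and 1576, and at 964, 1230, 899 and 908. This was 4.13-fold (log2 2.05 ± 0.07, SE, edgeR adjusted p = 1.41e-14), without overlap. Klf4 was 7.03-fold and Apold1, an endothelial early response gene, 6.84-fold higher. Nos3, the endothelial nitric oxide synthase and a known target of Klf2, did not pass (log2 0.04, named after its value was seen).

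A list of 30 genes known to respond to tissue dissociation overlapped the score in 7, and of the other 23 genes 22 rose (median log2 2.29), with Hspe1 as the exception. Their summed level was 2.76 to 4.41 times higher in members of healthy and 3.37 to 4.22 times in those of MI mice. Many of them also stand in the lists above. Their part in the results above was not tested, as no heart was handled without digestion.

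By the fixed rule the 12 genes with the largest rise were Gm26802, Socs3, Junb, Tnfsf9, Zfp36, Ppp1r15a, Nfkbiz, Gm12216, Adamts1, Btg2, Nr4a1 and Csrnp1. Apart from Gm26802, taken up next, all kept their call in the 23 other settings tried. Gm26802 is a long intergenic RNA at chr7:19298260-19300770, on the same strand as Fosb and 1925 bases beyond its end. It stood at 14.1, 106, 42.6 and 112 CPM in healthy and 35.3, 27.9, 24.1 and 57.8 in MI members, and at 0 to 0.633 and 1.03 to 2.86 in low-score cells. It thus reached the mean of 20 CPM needed for naming through the members alone. The size of its change rests on few low-score UMIs, so no fold or p is given. Whether its counts follow those of Fosb, a gene of the score, was not tested. Adamts1, a secreted protease that binds VEGF, was 8.91-fold higher (674 to 1410 CPM against 78.0 to 182). Tnfsf9, the ligand of the T cell receptor 4-1BB, was 11-fold and Csrnp1, a nuclear protein, 7.99-fold higher; Gm11110 overlaps the former and Cx3cr1 the latter.

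**Figure D4:**
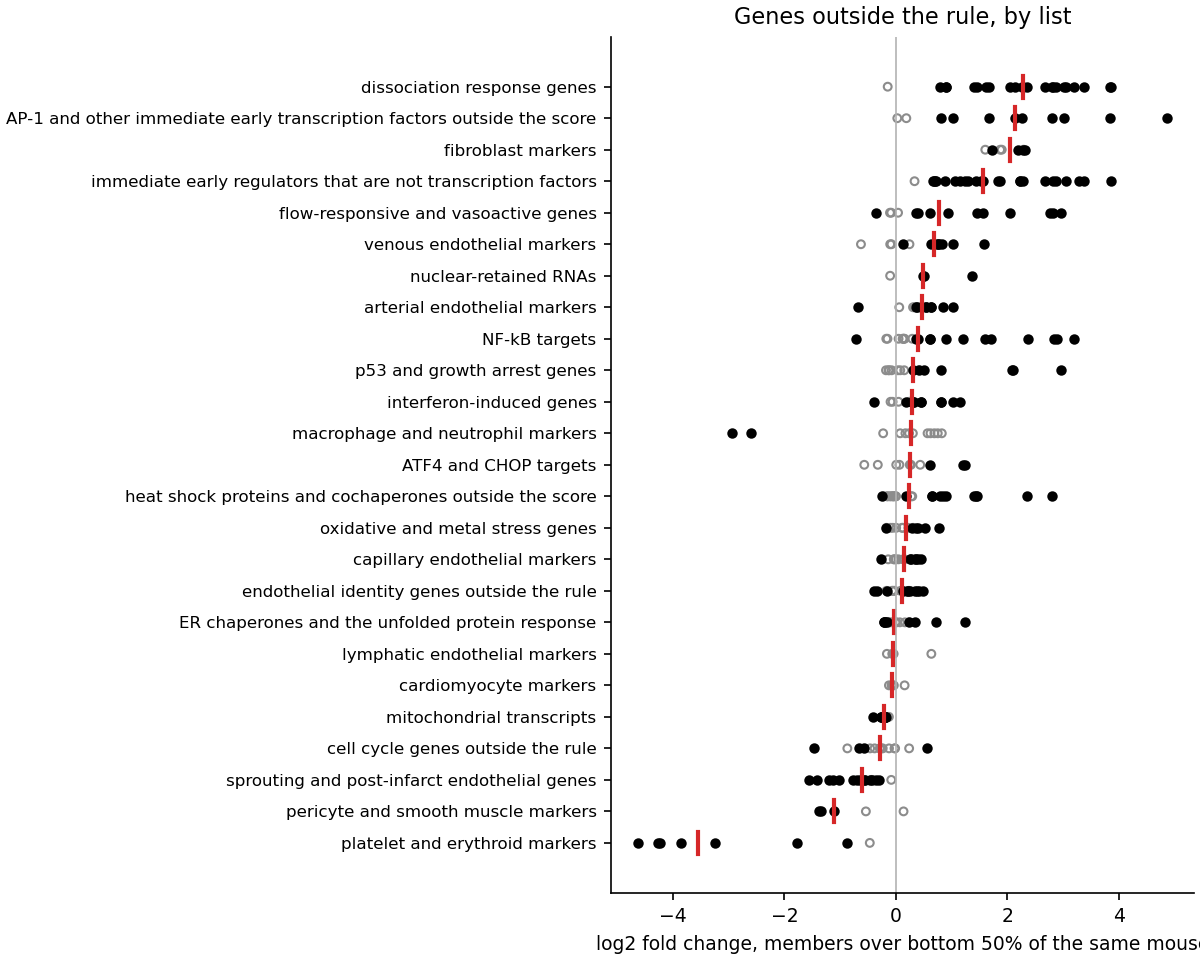
Log2 fold change of members over low-score cells (x axis) for each tested gene of each list (y axis), with filled points at adjusted p below 0.05, open points otherwise and a red bar at the list's median. The immediate early, dissociation and flow lists lie to the right, and the sprouting, pericyte, platelet and erythroid lists to the left; the fibroblast list was led by Healthy 227 and MI 244.

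Markers of vessel type were tested next. Of 14 capillary genes 6 rose and 1 fell (median log2 0.14), and their summed level moved in opposite directions in healthy and MI mice, as given further on. Of 14 tested arterial genes 9 rose and 1 fell (median log2 0.47). Sox17, a factor of arterial identity, was 2.03-fold higher (251 to 552 CPM against 126 to 270, higher in 8 of 8 mice), and Hey1, a Notch target, 1.79-fold, while Gja5, an arterial connexin, fell by 0.68 on the log2 scale over all mice, although it was higher in members of each healthy mouse and lower in those of each MI mouse. The summed arterial level was 1.44 to 1.55 times higher in healthy and 1.28 to 1.46 times higher in MI members. Of 12 venous genes 8 rose (median log2 0.69), a count that came to 4 without the 1409 eligible cells marked by haemoglobin or macrophage genes. General endothelial genes outside the rule went both ways, with 8 of 19 higher and 3 lower: Flt1, a VEGF receptor, was 1.41-fold higher, and Cd34 and Cldn5, a tight junction gene, fell by 0.39 and 0.34 on the log2 scale.

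Genes of sprouting and of the post-infarct vessel fell together. Of 16 tested 14 fell and 0 rose, at a median log2 of -0.61, and their summed level in members was 0.670 to 0.737 of that in low-score cells in healthy mice and 0.598 to 0.726 in MI mice. Apln, the apelin peptide made by sprouting tip cells, stood at 15.9, 15.5, 9.83 and 19.0 CPM in healthy and 103, 58.8, 58.0 and 72.6 in MI members. In low-score cells it stood at 59.7, 58.3, 103 and 80.8, and at 184, 114, 138 and 136. It was lower in the members of each mouse, 2.29-fold over all mice (log2 -1.20 ± 0.14, SE, edgeR adjusted p = 2.95e-06). The fall was smaller in MI than in healthy mice (difference of log2 changes 1.38).

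Basement membrane genes of the list fell less, Col4a2 by 1.46-fold and Sparc by 1.39-fold, each lower in 8 of 8 mice. By the fixed rule Pgf, a ligand of VEGF receptor 1, fell 2.19-fold, Mest, an imprinted gene, 2.21-fold (it overlaps Copg2), Fam167b 2.4-fold and Cd109, a surface protein that binds TGF-beta, 2.41-fold. Snhg20, a long noncoding RNA, fell 3.55-fold (5.18 to 12.4 CPM against 19.9 to 50.2) and Lars2, the mitochondrial leucyl-tRNA synthetase, 2.75-fold. AA467197 was at 0 in the members of all 4 healthy mice and at 1.34 to 5.12 CPM in their low-score cells, and at 11.3 to 39.5 against 56.2 to 105 in MI mice.

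Interferon-induced genes rose in 11 of 17 and fell in 1 (median log2 0.29), and 5 rose when cells were thinned to 1000 UMIs. Their summed level was 0.909 and 0.939 of that in low-score cells in Healthy 227 and 239, 1.13 and 1.21 times it in Healthy 228 and 240, and 1.22 to 1.35 times it in the MI mice. In the test of the difference between MI and healthy mice 4 of 17 were called upwards and 0 downwards, and none with thinned cells or with DESeq2. Isg15, a ubiquitin-like modifier, was 1.76-fold higher (390 to 815 CPM against 264 to 538), and Iigp1, a GTPase, 2.22-fold, each in 8 of 8 mice, while Bst2 fell by 0.40 on the log2 scale in 8 of 8. Cell cycle genes outside the rule rose in 1 and fell in 3 of 15.

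The largest falls were those of haemoglobin. Hbb-bs stood at 33.5, 199, 151 and 104 CPM in healthy and 199, 1015, 26.3 and 89.6 in MI members, against 4215, 4523, 894 and 2834, and 4711, 4569, 651 and 648, in low-score cells, which was 14.5-fold lower (edgeR adjusted p = 1.4e-08). Hbb-bt, Hba-a1 and Hba-a2 fell with it, by 24.9-fold, 19.3-fold and 18.8-fold. At least 1% of the UMIs were haemoglobin in 28 of 4819 healthy and 43 of 6483 MI low-score cells, and in 1 of 965 and 5 of 1297 members. Without the 1409 eligible cells with that share of haemoglobin or with 3 or more UMIs of C1qa, C1qb, C1qc, Tyrobp, Fcer1g and Csf1r, the log2 change of Hbb-bs was 0.0013, and 1 of 7 tested platelet and erythroid genes fell in place of 7 of 8. As haemoglobin defined part of the cells removed, the loss of its fall was largely set by that definition.

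Markers of other cell types were also read. Of 12 macrophage and neutrophil markers S100a8 and S100a9 fell, without the marked cells 1 of 10 rose and 0 fell, and against all other eligible cells 7 of 12 fell. The summed level of the list was 670 CPM in members and 48.8 in low-score cells of Healthy 240 and 264 against 155 in Healthy 239, and it was lower in members of the other 6 mice. At least 3 UMIs of the 6 macrophage genes were held by 70 of 1297 MI members and 673 of 6483 MI low-score cells, and by 2 of 965 and 6 of 4819 healthy ones. Their share of all eligible cells was 3.48% to 17.0% in the MI mice, highest in MI 255, where it was 10.1% of members and 18% of low-score cells. Of 8 fibroblast markers 4 rose, but their summed level was 1407 against 15.1 CPM in Healthy 227 and 715 against 36.8 in MI 244, and it was lower in members than in low-score cells of Healthy 228, Healthy 240, MI 250 and MI 256. Without the marked cells 1 of 6 rose, and with DESeq2 none did. Of 5 pericyte and smooth muscle genes 3 fell, and of 6 cardiomyocyte, 4 lymphatic and 2 lymphocyte genes none passed with edgeR or DESeq2, nor at an unadjusted edgeR p under 0.05. With low-score cells drawn to the UMI totals of the members 1 of the 4 lymphatic genes was called higher. The summed lymphatic level was 737 against 168 CPM in Healthy 240 and 220 against 86.2 in MI 250, and 0.280 to 0.391 of the low-score level in Healthy 239 and in MI 244, 255 and 256.

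The mitochondrial and ribosomal protein shares of UMIs moved with the score, while RNA quality itself was not measured. The mean mitochondrial share of UMIs was 2.26%, 3.06%, 2.91% and 3.27% in healthy and 2.67%, 2.36%, 2.54% and 3.56% in MI members. In low-score cells it was 2.66%, 3.78%, 3.32% and 4.06%, and 3.08%, 3.01%, 3.01% and 4.31%. It was lower in members of 8 of 8 mice, by 0.399 to 0.788 percentage points (mean -0.574 ± 0.170, SD, exact sign-change test, p = 0.0078125). Of 13 mitochondrial transcripts 11 fell and 0 rose. The mean share of ribosomal protein transcripts was also lower in members of 8 of 8 mice, at 10.8% to 11.5% against 13.4% to 15.8% in healthy and 10.4% to 12.6% against 13.5% to 16.0% in MI mice (no test was made). The nuclear RNAs Neat1 and Malat1 were 2.58-fold and 1.42-fold higher. The part of RNA quality in the gene changes was not tested. The count of calls was 2298 with cells of at most 10% mitochondrial UMIs.

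The change from low-score cells to members was then compared between MI and healthy mice with an interaction term in edgeR. Of 9943 genes, 109 (1.1%) changed more upwards in MI mice and 70 (0.704%) more downwards. Of 14 capillary genes 11 were called upwards and 0 downwards (median difference 0.50), against a median of 0.021 over all genes. Their summed level was 0.757 to 0.882 of that in low-score cells in the 4 healthy and 1.08 to 1.15 times it in the 4 MI mice. The count was 8 to 10 under 7 other settings and 6 with cells thinned to 1000 UMIs. Other markers moved with it. Macrophage-marked cells were 3.52% to 18% of MI low-score cells and 1.06% to 10.1% of MI members, and without them and the haemoglobin-rich cells 10 of the 14 capillary genes were called. Summed nuclear-retained RNAs were 0.980 to 1.31 times as high in members as in low-score cells of healthy mice and 1.36 to 1.81 times in MI mice, with 2 of 4 called upwards, and their part in the capillary difference was not tested.

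Aqp1, a water channel of capillary endothelium, stood at 1108, 1722, 1701 and 1400 CPM in healthy members and 1797, 2183, 2246 and 1864 in healthy low-score cells. In MI mice it stood at 950, 2046, 895 and 1397 in members and 823, 1578, 793 and 1044 in low-score cells. It was lower in members of each healthy and higher in members of each MI mouse (difference of log2 changes 0.74 ± 0.09, SE, edgeR adjusted p = 1.61e-05). Timp4, a protease inhibitor that overlaps Syn2, and Cd36, a fatty acid carrier, had the same pattern in all 8 mice, with differences of 1.19 and 0.64, and Car4, a capillary carbonic anhydrase, of 0.85.

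Of 14 arterial genes 4 were called downwards and 0 upwards, and of 12 venous genes 3 downwards and 1 upwards. Gja5 stood at 19.4, 15.5, 52.4 and 20.7 CPM in healthy members and 10.7, 11.3, 32.6 and 9.50 in low-score cells, but at 15.1, 21.3, 32.4 and 43.1 in MI members and 51.8, 45.2, 85.3 and 73.7 in MI low-score cells. It was higher in members of each healthy and lower in those of each MI mouse (difference -2.02 ± 0.27, SE, edgeR adjusted p = 9.23e-05), and did not pass with thinned cells (-1.18). Gja4, another connexin, Fbln5, a fibre protein, and Jag1, a Notch ligand, had differences of -1.49, -1.12 and -1.0.

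Vwf, the clotting factor of large and venous vessels, stood at 72.4, 115, 147 and 89.8 CPM in healthy members and 22.7, 33.9, 39.3 and 34.2 in low-score cells, and at 97.4, 178, 225 and 192 against 91.0, 124, 184 and 166 in MI mice. It was higher in members of all 8, by less in MI mice (difference -1.42 ± 0.15, SE, edgeR adjusted p = 6.25e-06). Bgn and Nr2f2 of the venous list also changed less upwards (-1.41 and -0.92), and Fmo2 more (0.78).

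Plvap, the diaphragm protein of fenestrated capillaries and of venules, stood at 45.9, 21.8, 18 and 6.90 CPM in healthy members and 4.01, 5.66, 3.20 and 12.7 in low-score cells. In MI mice it stood at 175, 158, 453 and 74.8 in members and 493, 362, 947 and 249 in low-score cells. It was thus lower in members of each MI mouse and higher in 3 of 4 healthy ones (difference -3.09 ± 0.48, SE, edgeR adjusted p = 0.000342), but without Healthy 227 and 228, the libraries that had lost copied cells, it did not pass (-2.01). Gtpbp3 overlaps Plvap.

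The macrophage genes C1qa, C1qb and C1qc were also called (-2.82, -2.50 and -2.55), with Wfdc17 (-3.32), and 6 of 12 markers of the list were called downwards. Macrophage calls were lost without the cells marked by haemoglobin or macrophage genes, with thinned cells, against all other eligible cells and with DESeq2, and without the marked cells C1qb and C1qc stood at 0.17 and 1.59. The marked cells were defined by these genes among others, so the loss of these calls without them was largely set by that definition. Of 25 immediate early regulators 5 were called downwards, among them Ppp1r15a (-0.84) and Cyr61 (-0.81), and 1 upwards, and of 23 dissociation genes 5 downwards and 1 upwards. Against all other eligible cells these counts were 1 and 0, and 2 and 0. Of 15 p53 and growth arrest genes 2 were called downwards. Among the transcription factors Junb (-1.05) and Jund (-0.49) changed less in MI mice, calls that were lost against all other eligible cells (-0.23 and -0.14), and 0 of 24 heat shock genes were called by edgeR or DESeq2, with 5 at an unadjusted edgeR p under 0.05. Upwards, Kdm6b, a histone demethylase, had a difference of 1.06 and Ntf3, a neurotrophin, of 1.09, both called in each of the 22 other settings.

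**Figure D5:**
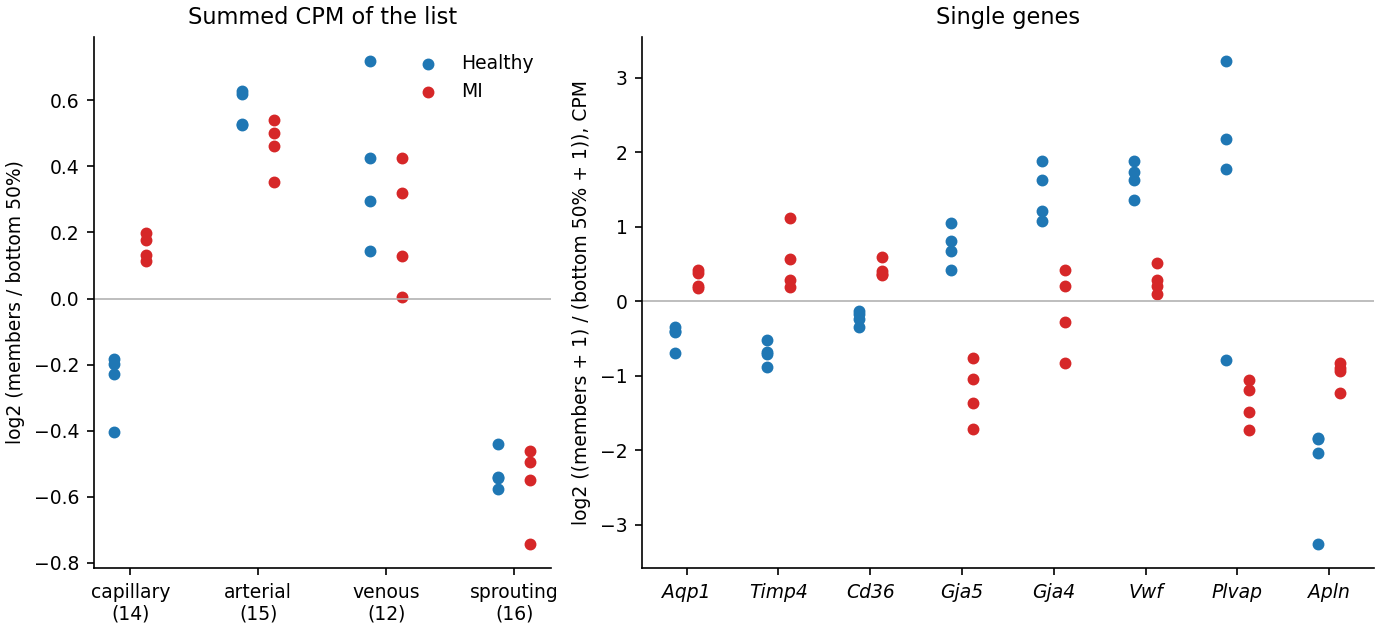
Log2 ratio of members to low-score cells of the same mouse (y axis) for summed CPM of 4 lists (left) and for single genes with 1 CPM added to both (right), with 1 point per mouse, healthy in blue and MI in red. Capillary genes lie below 0 in the 4 healthy and above 0 in the 4 MI mice, and Gja5 the other way round, while the sprouting list lies below 0 in all 8.

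Within the members, MI and healthy mice were compared directly with edgeR. Of 7479 genes tested, 216 (2.89%) were higher and 307 (4.1%) lower in MI members, a split that turned to 327 higher and 230 lower when only the library size was scaled. The median log2 over all genes moved from -0.0062 to 0.082 with that scaling. Sprouting and post-infarct genes were higher in 8 of 14 and lower in 0 (median log2 0.63), and interferon-induced genes in 6 of 17 and 0. The summed sprouting level was 3064 to 3607 CPM in healthy and 4539 to 7230 in MI members. In low-score cells it was 4557 to 5258 and 7595 to 10190, so its rise was not particular to members. Capillary genes were lower in 5 of 14, flow-responsive genes in 4 of 14 and heat shock proteins in 3 of 22, with none higher in these 3 lists, and the capillary count was 1 without Healthy 227 and 228. Nuclear and mitochondrial transcripts and markers of other cells differed as well. Summed nuclear-retained RNAs were at 53340 to 70636 CPM in healthy and 31749 to 37446 in MI members (2 of 4 genes lower, Malat1 and Kcnq1ot1). In low-score cells the same sum was also lower in MI mice, at 47973 to 54453 in healthy and 17520 to 27491 in MI mice. In members, 2 of 13 mitochondrial transcripts were lower. Of 6 macrophage markers 1 was higher (median log2 1.43), with a summed level of 22.9 to 670 CPM in healthy and 265 to 997 in MI members. Their part in the differences between MI and healthy members was not tested. Without the cells marked by haemoglobin or macrophage genes the sprouting count was again 8 of 14.

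Lrg1, a secreted glycoprotein that acts on TGF-beta signalling, stood at 8.83, 3.11, 34.4 and 3.45 CPM in healthy and 146, 237, 367 and 172 in MI members, a change of 16.2-fold (log2 4.02 ± 0.47, SE, edgeR adjusted p = 0.00116). Fam167b stood at 5.30, 3.11, 4.92 and 5.18, and at 46.2, 54.4, 73.8 and 36.3 (10.5-fold). The groups did not overlap for either gene. Few UMIs stand behind most of the healthy values of Lrg1 and Fam167b, so the size of both folds is uncertain.

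Adamts4, a matrix protease whose count is uncertain, was 16.1-fold higher in MI members, Igfbp5, a binding protein of insulin-like growth factors, 10.8-fold, and Selp, the adhesion molecule P-selectin, 10.1-fold. Plvap was 9.04-fold higher, Cxcl2, a neutrophil chemokine, 6.1-fold and Col15a1, a basement membrane collagen, 5.89-fold. The Cxcl2 call was lost in 7 of 18 other settings. Among interferon genes Irf7, the regulator of interferon production, was 3.33-fold and Oasl2 2.11-fold higher.

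Heat shock genes that passed were lower in MI members. Hspb1 stood at 2445, 3303, 2620 and 2325 CPM in healthy and 1212, 2001, 844 and 1607 in MI members (1.97-fold lower, edgeR adjusted p = 0.0151), and Fkbp4, a cochaperone of HSP90, was 2.02-fold and Hsp90ab1, the constitutive HSP90, 1.43-fold lower. Junb, Zfp36, Btg2, Dnajb1 and Klf2 did not pass between the groups, at log2 values of -0.15, -0.43, -0.63, 0.02 and -0.28. Socs3 was 1.67-fold higher in MI members.

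Apart from Ly6c2, a surface antigen (5.05-fold lower), the 8 genes with the largest fall in MI members were gene models: Gm10126, Gm10269, Gm15013, Gm11273, Gm5093, Gm8186 and Gm17541, 3.08-fold to 4.27-fold lower. The annotation calls 5 of these 7 processed pseudogenes, which resemble their parent genes, so the counts are uncertain.

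The score was last read in cells that the rule leaves out, as the log2 ratio of their pooled score to that of eligible cells of the same mouse. Cells with Rgs5, a pericyte gene, and none of the other excluded genes scored higher in 8 of 8 mice, at 44.6 to 86.3 UMIs per 10000 (mean log2 ratio 0.305 ± 0.230, SD, exact sign-change test adjusted over 3, p = 0.0117). Cells with Mki67 or Top2a, which mark the cell cycle, scored lower in 8 of 8, at 17.9 to 40.1 (-0.796 ± 0.317, exact test adjusted p = 0.0117). Cells with the leukocyte gene Ptprc, in the 6 mice with at least 20 of them, did not differ beyond their spread (0.119 ± 0.233, exact test adjusted p = 0.281). The cells of these 3 classes were deeper than eligible cells of the same mouse, with a median of 4569 to 7908 UMIs in those with Ptprc. Cells left out because they lacked Pecam1, Kdr and Cdh5 were shallower, with a median of 1207 to 3232.5 UMIs, and their score was not tested.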

How the data were processed

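Cardiac endothelial cells of 4 healthy and 4 MI mice were profiled with 10x Chromium 3′ chemistry, 1 library per mouse. The authors aligned and counted the reads with Cell Ranger against mm10, processed them in R 3.5.2 with Seurat 2.3, and removed cells with fewer than 400 genes or more than 20% mitochondrial UMIs. The values used are the raw UMI counts per gene and cell that the authors deposited (16791 genes, 31028 cells). Every gene row names a gene, and 0 columns could not be mapped to a mouse. No correction for free RNA was made here.

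Barcodes shared by Healthy 228 and 239, and by Healthy 227 and 228, were dropped from the first of each pair. No doublets were called or removed. Counts were summed per mouse over members and over low-score cells and tested with edgeR 4.0.16 in R 4.3.3 (TMM, filterByExpr, quasi-likelihood F test, Benjamini-Hochberg over all genes outside the rule, threshold 0.05). The mouse was a block between classes of cells, as both classes come from the same animal, and the difference between MI and healthy was an interaction term. Single values were compared with exact two-sided permutation tests, or exact sign-change tests over 8 mice, in Python 3.11.15 with scipy 1.17.1. DESeq2 1.42.0 was an alternative. The steps were tested on simulated counts.

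Genes named were the 14 genes of the rule (values only), the 12 highest and 12 lowest changed genes between members and low-score cells (at least 20 CPM on average, same direction in all 8 mice), the 8 highest and 8 lowest for each comparison of MI with healthy mice, and up to 4 genes per list by smallest p. Some genes that this rule names are not reported here. Other genes, named as exceptions to a list's count or because they led another comparison, were chosen after their values were seen. The members and gene lists were chosen with earlier results of these data known. Promoter sequences came from RefSeq and gene positions from GENCODE on GRCm38. Strand handling in the counting is not given in the sources used here, so overlapping genes are uncertain. Alternatives covered thinning to 1000 UMIs per cell, other normalization, filters, cutoffs and scores, other comparison cells, and leaving out each mouse. Thinning left out the 522 healthy and 0 MI cells that held fewer UMIs.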

Additional observations from a re-analysis of the deposited data

Results flagged for a closer look

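In groups of 4 mice, a value was singled out when its gap to the nearest mouse was above Dixon's 95% critical value as a share of the group's range, which chance gives in about 1 of 20 groups; 8 of 104 groups had such a mouse. MI 250 stood above the other MI mice in Jun over eligible cells (16.0 UMIs per 10000, the others 12.3 to 13.0) and in the 5 immediate early genes of members (162, the others 134 to 137). The level in members is a description only, since these genes chose the cells. MI 244 stood above the other MI mice in the log2 ratio of members to low-score cells of Junb (3.74, the others 3.10 to 3.21), Nfkbiz (3.14, the others 2.58 to 2.67) and Adamts1 (3.16, the others 2.78 to 2.80). Healthy 239 stood below the other healthy mice for Nfkbiz (3.58, the others 4.06 to 4.09) and Apln (-3.26, the others -2.03 to -1.84), and MI 256 below the other MI mice for AA467197 (-2.21, the others -1.40 to -1.26).

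Between MI and healthy mice, the log2 ratio of immediate early genes in cells ranked by the heat shock pair differed by -0.63 (exact permutation p = 0.0286, adjusted p = 0.0571), and by -0.087 when the top cells were set against all other eligible cells (exact p = 0.457). The change from low-score cells to members differed by edgeR's interaction term for further genes. Upwards in MI mice these were Ppbp (3.77), Apln (1.38, a smaller fall), Timp4 (1.19), Klra9 (1.19), Lnx1 (1.16), Ntf3 (1.09) and Kdm6b (1.06). Downwards they were Wfdc17 (-3.32), Plvap (-3.09), Gm26802 (-3.03), C1qa (-2.82), C1qc (-2.55) and C1qb (-2.50). The size for Gm26802 rests on a level of 0 to 0.633 CPM in healthy low-score cells. Few UMIs stand behind that level, so no difference between MI and healthy mice is concluded for Gm26802. Fip1l1 overlaps Lnx1 and Kdm6bos overlaps Kdm6b.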

How the results depend on the processing

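Between members and low-score cells 2257 genes were called, 1113 with cells thinned to 1000 UMIs, 698 with no replicate block and 1840 to 2316 when each mouse was left out. Without the block the calls of AA467197, Cd109, Fam167b, Apln, Mest and Pgf were lost. Apart from Gm26802, which was named through the members alone, the 12 highest genes kept theirs in all 23 settings. Within members 523 genes differed between MI and healthy mice, 263 with thinned cells, 258 in the top 5%, 1219 in the top 20%, 236 without Healthy 227 and 228, and 251 to 624 when each mouse was left out (312 without Healthy 228, 251 without MI 244, 314 without MI 250 and 295 without MI 255). The share higher in MI mice was 41.3% and, scaled by library size only, 58.7%; between members and low-score cells the share higher was 51.0%, 41.9% by library size and 41.3% with no filter on low counts. The difference of changes was called for 179 genes, 64 with thinned cells, 104 with DESeq2, 363 with no filter, 104 when cells were chosen on a random 50% of UMIs, 115 against all other eligible cells, 116 with low-score cells drawn to the members' depth, 108 without Healthy 227 and 228, and 91 (without Healthy 239) to 207 when each mouse was left out.

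Without haemoglobin-rich and macrophage-marked cells, a setting chosen after seeing the data, the calls were lost and the fitted values, none of which passed, had the other sign for Hba-a2 (0.18), Hbb-bs (0.0013), Hbb-bt (0.10) and S100a9 (0.17) between members and low-score cells, and for C1qb (0.17), C1qc (1.59) and Lyz2 (0.32) in the difference of changes. The cells left out were defined in part by these haemoglobin and C1q genes. For the other changes of count the cause was not tested. Healthy members gave 325421 to 626366 UMIs per mouse and MI members 883911 to 1358647, so a rare gene rests on fewer UMIs in healthy mice. The part of depth in the counts of calls was not tested.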
